A study of Mus musculus with 2 samples.

Results

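Open chromatin was examined at 9 mouse genes for cell surface molecules, grouped here as adhesion molecules of the bone marrow niche: Itga4, Itga5, Itga6, Itgal, Itgb1, Itgb2, Cd44, Selplg and Cd47. The genes were chosen by name, 9 of 21887 protein-coding genes in the RefSeq annotation of the mm10 build. For each gene, the accessible regions that touched the gene body or the 50 kb on each side of it were taken, which gave 77 of 32005 regions in the control list and 28 of 13156 in the H1C list. A region within 1000 bp of an end of the gene is called a gene-end region of that gene. The assay was ATAC-seq: a transposase inserts sequencing adapters into exposed DNA, and places with many insertions are listed as accessible regions.

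Both groups were hematopoietic stem cells from the bone marrow of wild-type C57BL/6J mice, sorted as CD48-CD150+LSK, and about 1000 cells went into a library. The control cells had been transduced with the empty retrovirus pMSCV and the H1C cells with MSCV-H1C, which carries the linker histone gene H1C (now H1f2). The share of cells that carried the virus, the level of H1C reached, the age of the mice and any pooling of animals are not stated in the labels. Each group was 1 library, so no difference between the groups has a replicate check and no p-value is given. The comparison addresses accessibility under added linker histone.

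Integrins are receptors made of an alpha and a beta subunit that bind matrix proteins and counter-receptors on other cells, and switch between a resting and an adhesive state. Itga4 with Itgb1 binds VCAM and fibronectin and holds stem cells in the marrow, Itga5 with Itgb1 is the classical fibronectin receptor, Itga6 with Itgb1 binds laminin, and Itgal with Itgb2 binds the ICAM family on endothelium. Cd44 is a receptor for hyaluronan, Selplg is the selectin ligand on which blood cells roll along vessel walls, and Cd47 signals to macrophages that the cell should not be engulfed. A linker histone binds DNA at the entry and exit of the nucleosome and promotes compact chromatin.

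Read totals are not part of the lists. Each deposited region carries a fold over local background and a p-value, from which its summit pileup (how many fragments or reads lie over its highest point) and its background were worked out. The lowest background of a list, 3.99 in control and 4.40 in H1C, stands for depth, so each pileup ratio, H1C over control, was divided by 1.10, the ratio of these backgrounds. Where ratios are said to be scaled by the local background, the ratio of the median local backgrounds at shared summits, 0.869, took its place, a value that partly counts the regions' own reads. All intervals are exact 95% intervals and cover counting error only. Amplified fragments are not independent molecules, so even that error can be larger.

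Start sites in the RefSeq promoter table were matched for 5 of the 9 genes, and the 250 bases upstream of each are given here because they show the sequence on which the gene-end regions below lie or fail to lie. Itga4, Itgb1 and Cd47 had an overlapping H1C region near the start site and Cd44 and Itga5 did not. Sequences are RefSeq, GRCm38.p6, 5′ to 3′ on the strand of the gene. Capitals mark matches on either strand to 4 motifs. The ETS core was searched as CCGGAAG, or in the shorter spelling with adenine first as AGGAAG. The RUNX motif was searched as TGTGGT. The GATA motif was searched as AGATAA. The SP/KLF motif was searched as GGGCGG.

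Itga4, chr2:79255176-79255425, plus strand: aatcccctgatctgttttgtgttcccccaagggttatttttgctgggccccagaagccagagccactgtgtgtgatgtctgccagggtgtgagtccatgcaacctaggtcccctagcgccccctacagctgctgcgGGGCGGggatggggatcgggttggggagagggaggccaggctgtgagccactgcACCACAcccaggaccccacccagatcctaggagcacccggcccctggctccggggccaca
Itgb1, chr8:128685404-128685653, plus strand: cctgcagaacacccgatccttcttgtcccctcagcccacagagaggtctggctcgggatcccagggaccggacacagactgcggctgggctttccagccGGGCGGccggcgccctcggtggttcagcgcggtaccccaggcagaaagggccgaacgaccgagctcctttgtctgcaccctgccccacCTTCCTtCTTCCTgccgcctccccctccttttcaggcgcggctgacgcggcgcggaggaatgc
Cd47, chr16:49855404-49855653, plus strand: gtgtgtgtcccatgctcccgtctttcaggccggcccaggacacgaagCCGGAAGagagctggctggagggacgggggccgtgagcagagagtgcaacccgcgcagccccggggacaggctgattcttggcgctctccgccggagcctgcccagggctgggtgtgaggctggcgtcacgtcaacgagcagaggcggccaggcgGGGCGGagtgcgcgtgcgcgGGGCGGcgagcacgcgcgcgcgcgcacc
Cd44, chr2:102901666-102901915, minus strand: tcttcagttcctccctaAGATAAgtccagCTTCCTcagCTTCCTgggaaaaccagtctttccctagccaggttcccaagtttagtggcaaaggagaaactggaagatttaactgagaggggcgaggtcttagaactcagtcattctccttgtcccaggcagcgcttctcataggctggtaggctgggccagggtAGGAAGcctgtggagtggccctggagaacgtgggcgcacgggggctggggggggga
Itga5, chr15:103366792-103367041, minus strand: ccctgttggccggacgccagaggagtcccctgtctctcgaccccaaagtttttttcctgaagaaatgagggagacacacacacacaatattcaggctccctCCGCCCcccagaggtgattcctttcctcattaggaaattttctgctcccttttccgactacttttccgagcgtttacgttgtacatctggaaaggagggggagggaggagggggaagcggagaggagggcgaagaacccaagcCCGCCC

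No 2 matches overlapped in these sequences, and none of the 5 held the AP-1 letters TGANTCA, the TATA box letters TATAAA or the CTCF core letters CCACNAGG. An SP/KLF match was found in 4 of the 5 genes, against 32.7% of 32851 upstream windows of the same length in the table, and an ETS match in 3, against 34.5%. Itga4 held the single RUNX match, 60 to 55 bases before the start (14.0% of all windows), and Cd44 the single GATA match, 233 to 228 bases before it (9.99% of all windows). Cd47 and Itgb1 were the richest in CpG, with 30 and 21 CpG in 250 bases and a GC content of 73.2% and 68.0%. Itga5 had 11 CpG and 55.6% GC, Itga4 had 6 and 64.0%, and Cd44 had 5 and 56.4%, beside a median of 6 CpG and 52.4% GC over all windows. A match is a description of the letters and does not show that a factor was bound.

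Gene-end regions of the adhesion genes were called less completely in H1C than in control, with the integrin genes divided between kept and not called. Control had 11 gene-end regions at 8 of the 9 genes, and 5 of them (45.5%, 16.7 to 76.6) overlapped an H1C region. A control gene-end region was found at 10264 of the 21887 protein-coding genes. Over all protein-coding genes 62.9% of control gene-end regions were called in H1C, and 56.1% of those with a pileup between 22 and 61, the range of the 11. Both values lie inside the interval of the adhesion genes, so this count does not set them apart. By gene, Itga4, Itga6, Itgal and Itgb1 had a gene-end region in both libraries, and Itga5, Itgb2, Cd44 and Selplg in control alone. That is 4 of 8 genes (50.0%, 15.7 to 84.3) beside 71.0% of all genes with a control gene-end region. At each of the 8 genes the gene-end regions lay at a single end of the gene, which is the start in the 4 that the promoter table covers.

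**Figure D1:**
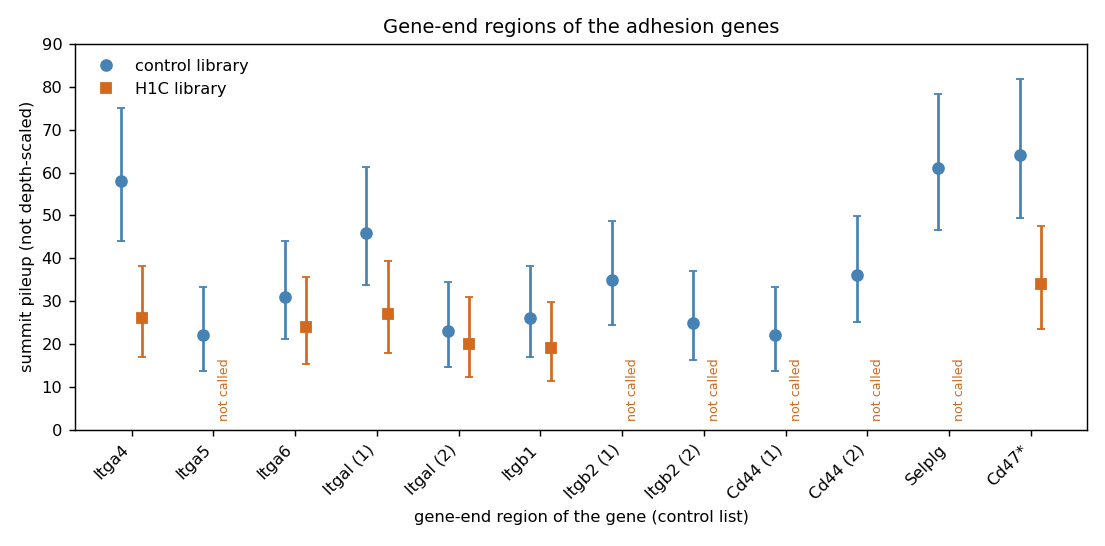
Summit pileup (vertical axis, not scaled for depth) of the gene-end regions of the adhesion genes in the control library (blue circles) and of the overlapping H1C region (orange squares), with exact Poisson 95% intervals as bars. Numbers in brackets tell regions of 1 gene apart in order of coordinate, and Cd47* is the region at its RefSeq start site, which lies inside the annotated gene body; 6 of the regions have no H1C counterpart, among them the strong Selplg region with a pileup of 61.

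Among the alpha subunits, Itga4 (chromosome 2, 79255426 to 79333114) had the highest control pileup at its gene end, while the fold was higher at Itgal. Its control region ran from 79254641 to 79255940 with a pileup of 58 (interval 44.0 to 75.0), a fold over local background of 5.44 and a −log10 q of 22.3. The H1C region, 79255154 to 79255711, had a pileup of 26 (17.0 to 38.1), a fold of 3.62 and a −log10 q of 5.65. The depth-scaled log2 ratio was -1.30 (-2.03 to -0.61), beyond counting error, and -0.95 (-1.68 to -0.26) when scaled by the local background. The H1C region was 558 bp wide against 1300 bp in control and lay wholly within it, and the summits lay 495 bp apart, with that of H1C nearer to the start site. The Itga4 pileups were thus read at different positions, and with summits required to lie within 200 bp of each other 3 of the 11 gene-end regions were called in H1C. In both libraries the region covered all 250 bases of the Itga4 sequence shown above.

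Itga6 (chromosome 2, 71786886 to 71858427) and Itgal (chromosome 7, 127296139 to 127335137) also kept their gene-end regions. Itga6 had pileups of 31 and 24 (control and H1C) with summits 6 bp apart, a log2 ratio of -0.51 (-1.34 to 0.30) that is within counting error. The Itga6 region narrowed from 873 to 210 bp. Itgal had a pair of gene-end regions, and the stronger one, from 127296024, had pileups of 46 and 27 and a log2 ratio of -0.91 (-1.65 to -0.19). Scaled by the local background, that Itgal ratio was -0.57 (-1.31 to 0.15), within counting error. The weaker, from 127297115, had 23 and 20 (-0.34, -1.28 to 0.59), and its H1C counterpart began at 127297309, just beyond the 1000 bp limit. The intervals of Itga4, Itga6 and Itgal overlap one another, so these genes cannot be ranked by their ratios.

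Itga5 (chromosome 15, 103344286 to 103366791) had a weak gene-end region in control, 103366534 to 103366770, with a pileup of 22 and a fold of 3.01, and none in H1C. It lay 21 to 257 bp downstream of the start site and covered none of the upstream sequence shown above. The nearest H1C region was 26837 bp away. At the local background of this region scaled to H1C, a pileup of 19 would have reached the lowest −log10 p in the H1C list, 3.91. The control pileup scaled to the depth of H1C is 24.3. Scaled by the local background, the pileup needed at this Itga5 region was 16, beside a scaled control value of 19.1. The region had been called in control, so these values do not show why it was not called in H1C, which was not tested. Over all genes, 19.0% of control gene-end regions with a pileup of 21 to 30 were called in H1C.

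Of the beta subunits, Itgb1 had a gene-end region called in both libraries and Itgb2 in control alone. With 1 library per group, a call beside no call at regions this weak does not show that these genes differ. Itgb1 (chromosome 8, 128685654 to 128733579), the partner of Itga4, Itga5 and Itga6, had a control region from 128685389 to 128686318 with a pileup of 26 and a fold of 4.56. It covered the 250 upstream bases, and its summit was 68 bp downstream of the start. The overlapping H1C region, 128686053 to 128686301, had a pileup of 19 and a fold of 3.70, began 399 bp downstream of the start and covered none of the upstream bases. Its summit lay 516 bp from the control summit. The log2 ratio of the pileups was -0.59 (-1.53 to 0.31), within counting error, but the pileups were read at different positions.

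Itgb2 (chromosome 10, 77530329 to 77565708), the partner of Itgal, had a pair of gene-end regions in control and none in H1C. The first, 77530219 to 77530466, had a pileup of 35 and a fold of 4.35, and the second, from 77531041, a pileup of 25 and a fold of 3.24. A pileup of 20 would have sufficed for a call in H1C at the scaled background of each region. The control values scaled to the depth of H1C are 38.6 and 27.6. Over all genes 46.0% of control gene-end regions with a pileup of 31 to 40 were called in H1C. The 20 needed at the first Itgb2 region corresponds to a log2 ratio of -0.95, on the assumption that the H1C region would have been as wide as the caller required.

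Selplg (chromosome 5, 113817798 to 113832528) had the strongest gene-end region of the 9 genes by pileup, and it was not called in H1C. The control region, 113832486 to 113832941, had a pileup of 61 (46.7 to 78.4), a fold of 4.70 and a −log10 q of 20.1. Over all genes 97.1% of control gene-end regions with a pileup of 61 to 70 were called in H1C. The local background at Selplg was 12.2, well above the lowest of the list. Among control gene-end regions with a pileup of 51 to 70, 94.3% of 2323 were called in H1C. Of the 71 with a local background of at least 12, a bound set after the Selplg value was seen, 47 were (66.2%, 54.0 to 77.0). A pileup of 29 would have been needed for a call in H1C at the scaled background, a log2 ratio of -1.21 to control. Local background at shared summits ran lower in H1C than in control, and with that ratio in place of 1.10 the pileup needed at Selplg was 24, beside a scaled control value of 53.0. The nearest H1C region, from 113830332 to 113830667 inside the gene, lay 1818 bp away and had a pileup of 38 against 51 in control (-0.57, -1.21 to 0.07).

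Cd44 (chromosome 2, 102811141 to 102901669) had a pair of gene-end regions in control and none in H1C. The one over the start site, 102901282 to 102901725, had a pileup of 36 and a fold of 4.72, covered 60 of the 250 upstream bases and had its summit 80 bp downstream of the start. The other, from 102900633, had a pileup of 22 and a fold of 2.86 and lay 653 to 1032 bp downstream. H1C had a region of its own at 102903433 to 102903696, 1707 bp beyond the control region, with a pileup of 22 and a fold of 3.48. Control had no region at that place.

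Cd47 (chromosome 16, 49851328 to 49912503) had no gene-end region by the rule, because its annotated span begins upstream of the start sites in the promoter table, 49855654 and 49855661. At these sites control had a region from 49854868 to 49856087 with a pileup of 64 (49.3 to 81.7) and a fold of 4.66. H1C had one from 49855251 to 49856177 with a pileup of 34 (23.5 to 47.5) and a fold of 3.40. Both covered all 250 upstream bases. The log2 ratio was -1.05 (-1.70 to -0.43), beyond counting error. With the start sites of the promoter table counted as gene ends, a choice made after the Cd47 region was seen, 6 of 12 gene-end regions were called in H1C.

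**Figure D2:**
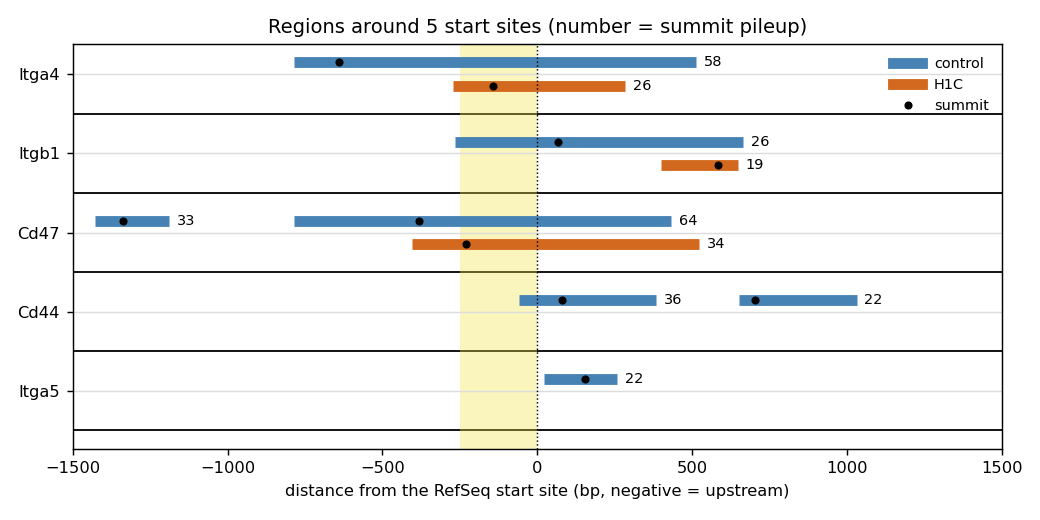
Called regions within 1500 bp of the RefSeq start site of 5 genes (horizontal axis, bp, negative is upstream; Cd47 at its first site), in control (blue bars) and H1C (orange bars), with the summit as a black dot and its pileup at the right. The shaded band is the 250 bases whose sequence is given; in H1C it is covered at Itga4 and Cd47, not at Itgb1, where the region begins 399 bp downstream, and no H1C region lies at Cd44 or Itga5.

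Away from the ends of the adhesion genes, most control regions were not called in H1C. Of the 66 control regions in the windows that were no gene-end region of the gene itself, 18 (27.3%, 17.0 to 39.6) overlapped an H1C region. They divide into 16 at the end of a neighbouring gene, of which 10 were called (62.5%, 35.4 to 84.8), and 50 at no gene end, of which 8 were (16.0%, 7.17 to 29.1). Over all protein-coding genes, 62.9% of control gene-end regions and 20.8% of control window regions at no gene end were called in H1C. Each share lies inside the interval of its class here. Inside the gene bodies 3 of 18 regions at no gene end were called (16.7%, 3.58 to 41.4) and in the flanks 5 of 32 (15.6%, 5.28 to 32.8). Over all classes 23 of 77 control regions were called (29.9%, 20.0 to 41.4), beside 35.8% of control regions in the window of any protein-coding gene.

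**Figure D3:**
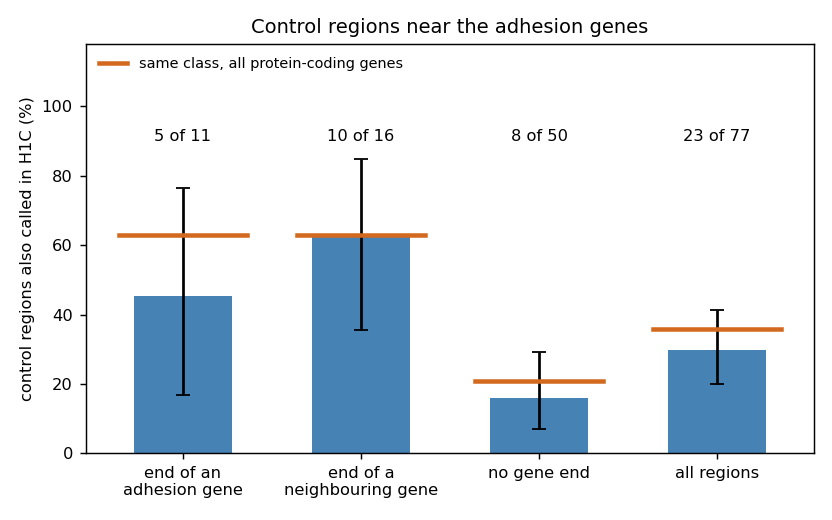
Share of control regions that overlap an H1C region (vertical axis, percent) by class, with exact 95% intervals as black bars, the counts above, and the share of the same class over all protein-coding genes as an orange line. The intervals of all 4 classes include the orange line.

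Among regions inside a gene body and at no gene end, Itga6 had the strongest one without an H1C counterpart. It lay at 71814077 to 71814360, with a control pileup of 51 and a fold of 7.07, higher than the fold of 5.11 at the gene-end region. A further 3 control regions in the Itga6 body, with pileups of 23 to 27, were not called either, so that in H1C the gene-end region was the only one left in the body. Over all genes 76.9% of control window regions at no gene end with a pileup of 51 to 60 were called in H1C.

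Itgb2 was the reverse, with no gene-end region in H1C but a kept region inside the gene. It lay at 77550906 to 77551320, and its pileups were 45 and 17. The log2 ratio of -1.55 (-2.44 to -0.71) was the lowest of the 23 shared regions, and the H1C call was weak, with a −log10 q of 2.17. Another 3 control regions in the Itgb2 body, with pileups of 22 to 35, were not called. The highest ratio of the 23 also lay in the Itgb2 window, at 77590769, inside the neighbouring gene Pttg1ip, with pileups of 27 and 29 (-0.04, -0.85 to 0.77).

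Far from the gene bodies, single distal regions were kept near Itga5, Itgb1, Cd44 and Cd47. Near Itga5 a region 38565 bp from the gene, at 103305156 to 103305721, had pileups of 61 and 36 (log2 ratio -0.90, -1.54 to -0.29), while the gene-end region was not called. Near Cd44 a region 42392 bp beyond the start, from 102944061, had 43 and 24 (-0.98, -1.77 to -0.23). A region of like control pileup 46872 bp from Cd44, from 102948541, with 44, was not called in H1C. Near Itgb1 a region 30521 bp away had 36 and 23 (-0.79, -1.61 to 0.01). Near Cd47 a region 10864 bp away had 37 and 28 (-0.54, -1.31 to 0.20), and one 32374 bp away with a pileup of 40 and the highest fold of that window, 8.22, was not called. The intervals of the 4 kept distal regions overlap. Those near Itga5 and Cd44 lay below 0 with the main scaling and reached 0.06 and 0.11 when scaled by the local background. Itga4 had 2 weak regions besides its start, with pileups of 17 and 18, and neither was called in H1C.

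Selplg and Itgal had the most control regions, 14 each. Of those around Selplg 2 were called in H1C (14.3%, 1.78 to 42.8), and the 12 others had pileups of 25 to 61. Cd44 kept 1 of 7, Itga5 1 of 8, Cd47 2 of 9, Itga4 1 of 3, Itga6 2 of 6, Itgb1 2 of 3, Itgal 6 of 14 and Itgb2 6 of 13. The exact intervals of these shares overlap one another, so the genes cannot be ranked by them. By pileup, the strongest regions of the Selplg and Itgal windows at no gene end that were not called in H1C lay outside the genes. The Selplg one, 113776868 to 113777233, lay 40565 bp away with a pileup of 54 and a fold of 4.82. The Itgal one, 127285196 to 127285505, lay 10634 bp away with a pileup of 43 and a fold of 5.70. Itgal and Itgb2 lie among other genes, and 4 of the 6 kept regions of each window were at the end of a neighbour.

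**Figure D4:**
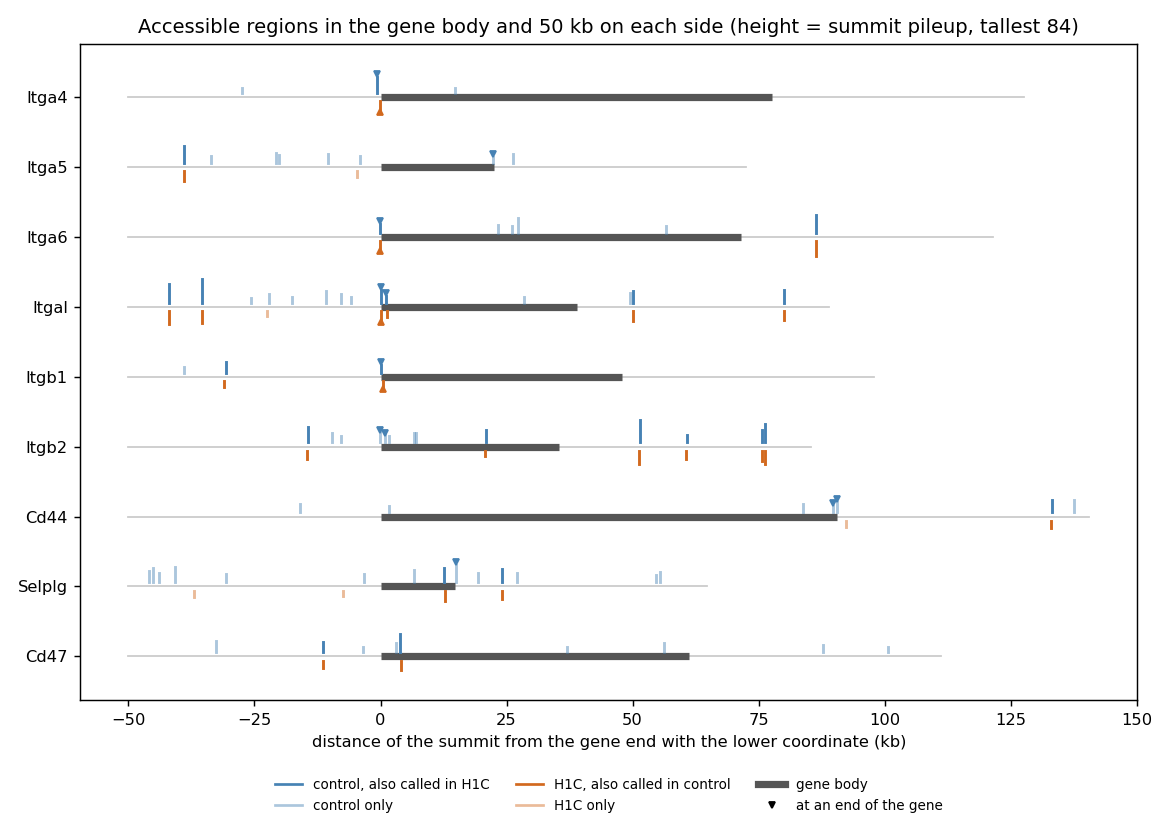
Accessible regions along each gene and its 50 kb flanks, by distance of the summit from the end with the lower coordinate (kb), with control above and H1C below the line, height in proportion to pileup (tallest 84), and pale colour for regions called in a single library. Dense runs of pale blue marks flank Selplg and lie within Itga6, while the marks at a gene end of Itga4, Itga6 and Itgal are matched below the line.

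Regions found in H1C were mostly found in control as well. Of the 28 H1C regions in the windows, 23 overlapped a control region (82.1%, 63.1 to 93.9), beside 87.3% over all protein-coding genes. The 5 others were weak, with pileups of 19 to 23 and folds of 2.86 to 3.48. They were the Cd44 region described above, 1 each in the windows of Itga5 and Itgal, at the ends of the neighbours Zfp385a and Sephs2, and a pair in that of Selplg, 7439 and 36984 bp from the gene. The one at Sephs2 lay 181 bp from a control region with a pileup of 31, and the one at Zfp385a 424 bp from a control region with a pileup of 24.

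Where a region was called in both libraries, the pileup was lower in H1C after depth scaling at all 23 shared regions, or at 21 of 23 when scaled by the local background. The median log2 ratio was -0.68 (quartiles -0.95 and -0.53), and the interval of the single ratio lay below 0 at 12 of the 23, or at 6 when scaled by the local background. Those 6 were the Itga4 gene end, the Cd47 start, the region inside Itgb2 and the ends of the neighbours Dctpp1, Fam207a and Pttg1ip. Over the 10214 shared regions in windows of protein-coding genes the median was -0.80, and 94.9% lay below 0. For the 8373 with a control pileup of 23 to 84, the range of the 23, the median was -0.83 and 98.6% lay below 0. A log2 ratio of -1 or lower was found at 5 of the 23, beside 26.5% of those 10214 regions. The 5 gene-end regions had a median of -0.59, the 10 at neighbouring gene ends -0.68 and the 8 others -0.85. The 8 others ran from -1.55 to -0.04 and the 5 gene-end regions from -1.30 to -0.34, so the classes cannot be ranked. Over all protein-coding genes the order was the reverse, -0.84 at shared gene-end regions and -0.68 at shared window regions at no gene end. A ratio exists only where H1C was called, which keeps out the lowest values at weak regions. Scaled by the local background, the median was -0.34.

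**Figure D5:**
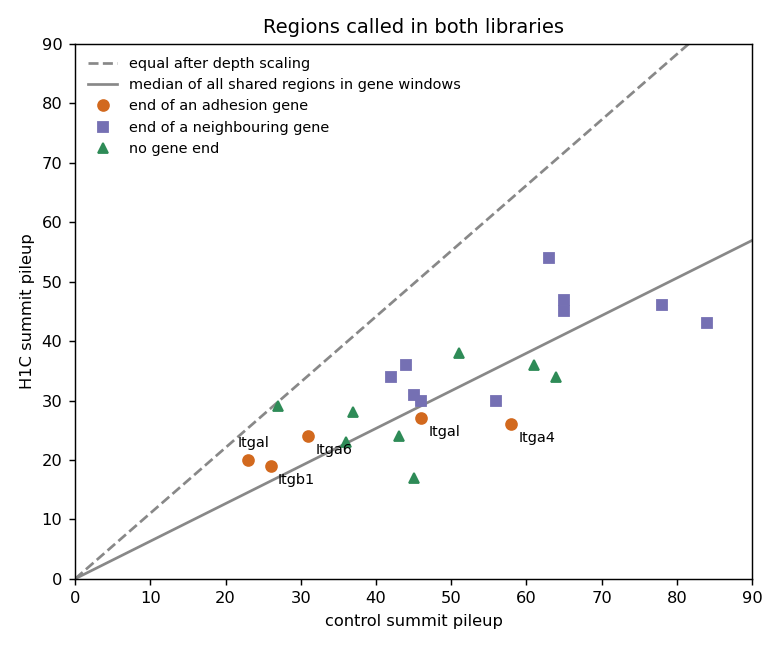
H1C against control summit pileup (both axes, not scaled) for the 23 regions called in both libraries, by class, with gene-end regions named. The dashed line is equality after depth scaling and the solid line the median ratio of all shared regions in gene windows; every point lies below the dashed line (with the local background scaling 21 of 23 ratios are below 0), and Itga4 lies lowest among the gene-end regions relative to it.

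Shared regions were also narrower in H1C. All 5 gene-end regions were narrower, with a median H1C to control width ratio of 0.429, and 20 of the 23 shared regions were narrower, with a median of 0.749. Over all shared gene-end regions 90.6% were narrower, and their median ratio was 0.712. Over all shared window regions 87.9% were narrower, with a median of 0.724, so narrowing does not set the 23 apart. Summits lay a median of 31 bp apart at the 23 regions and 30 bp apart over all shared window regions. They lay 516 bp apart at Itgb1, 495 bp at Itga4 and 376 bp at the distal Itgb1 region.

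Genes that act with the 9 were read by gene-end regions, and none of them had such a region in H1C alone. Either end of a gene counted, and regions also at the end of a neighbouring gene were not set apart. Counted so, 10264 of all 21887 protein-coding genes had a gene-end region in control. Of 23 genes for integrin activation and linkage to actin, 13 had a control gene-end region and 10 of these had one in H1C (76.9%, 46.2 to 95.0), beside 71.0% over all genes. They included Tln1 (talin, which switches integrins on; pileups 74 and 38), Fermt3 (kindlin of blood cells; 52 and 34), Ilk (55 and 39) and Vcl (vinculin; 73 and 32). Rap1a, Rassf5 and Rdx were in control alone, with pileups of 39, 24 and 27. Of 20 other integrin subunit genes, 7 had a gene-end region in control and 0 of these in H1C (interval up to 41.0%). Their pileups were 16 to 33, with Itgb3 at 33, Itgax at 30 and Itga9 at 29. Over all genes, control gene-end regions this weak were seldom called in H1C: 6.13% with a pileup up to 20, 19.0% with 21 to 30 and 46.0% with 31 to 40. Among ligand and counter-receptor genes, Icam1, which Itgal with Itgb2 binds, had one in both libraries (38 and 26). Icam2, Sirpa (the receptor for Cd47), Thbs1 and Madcam1 had one in control alone, with pileups of 31, 33, 22 and 42. Of 11 genes for the glycans and sulfate that Selplg and Cd44 carry, 9 had one in control and 6 kept it (66.7%, 29.9 to 92.5). Among these were Tpst2, which sulfates tyrosine (98 and 67), C1galt1, which builds the core O-glycan (101 and 44), and St3gal4 (25 and 22). Fut7, the fucosyltransferase that makes selectin ligands, was in control alone with a pileup of 37.

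Markers of the sorted cell and of others were compared at their gene ends. Here too either end counted, and regions also at a neighbouring gene end were not set apart. Over all protein-coding genes 10264 of 21887 had a control gene-end region, the share to set beside each short list below. Of 8 stem cell markers, Slamf1, Kit, Ly6a, Hlf and Meis1 had a region in control with pileups of 18 to 28 and none in H1C, and Procr, Mecom and Gata2 had none in either. Beside this 0 of 5, 71.0% of all genes with a control gene-end region had one in H1C, but 6.13% of control gene-end regions with a pileup up to 20 and 19.0% of those with 21 to 30 were called. Of further blood markers, Vav1 had one in both (53 and 28), Ptprc in control alone (32) and Cd34, which does not mark all blood cells, in neither. Cd48, which the sort excluded, had one in control alone (23). Of the markers of other cells, regions were found in control at 1 of 3 T cell, 2 of 3 B cell, 0 of 4 myeloid, 0 of 3 erythroid, 0 of 3 megakaryocyte, 2 of 4 endothelial and stromal, and 2 of 2 epithelial genes. In H1C, regions were found at the B cell genes Cd79a (63 in control and 27 in H1C) and Ms4a1 (38 and 21) and at none of the other such lists. Their part in the results was not tested, and an accessible gene end does not show that a gene is expressed.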

How the data were processed

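Regions were called per library and not on pooled samples. The build was mm10, and MACS2, Picard, featureCounts, Bowtie2 2.2.9 and Trim Galore 0.4.4 are named, per the submitters' processing notes. How duplicates were treated, whether reads were shifted and which settings applied is not given in the sources used here, and could alter pileups and summits. In the deposited lists the fold is a ratio of summit pileup to local background, both raised by 1. The score, −log10 p and −log10 q deposited per region come from the authors' peak caller and only describe regions within a list.

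Pileup and background were solved from fold and Poisson p, and accepted where the pileup was whole within a relative tolerance of 0.0001 (32004 of 32005 control and 13155 of 13156 H1C entries). On simulated entries the solver recovered 100% of 3000. Regions were shared when at least 1 bp overlapped, and the H1C region of highest pileup was used. Shares have Clopper-Pearson intervals and pileup ratios conditional binomial intervals. The pileup needed for a call used the control background times the background ratio. RefSeq GRCm38.p6 gave the gene spans, and start sites for the genes in its promoter table. All 9 genes were named, with strong regions away from their ends and all regions called in H1C alone. Intervals under the local background scaling were added after the data were seen. The list of ligands and counter-receptors is given in part, since 1 item is not reported here. The genes, lists, markers, motifs and tests were chosen with earlier results of these data known. Computation used scipy 1.17.1, pandas 2.3.3, numpy 2.4.6 and matplotlib 3.10.9 under Python 3.11.15.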

Additional observations from a re-analysis of the deposited data

How the results depend on the processing

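No paired analysis was possible because a single library stood for each group. Of 53 alternatives for 11 values, 42 stayed close to the value (within its interval, where it has one). A further 10 moved away from it and 1 changed sign, and the cause was not tested. The intervals are wide, 16.7 to 76.6% for the gene-end share, so staying inside is a weak check. With summits within 200 bp that share was 27.3% and still counted as close. Windows of 10 and 100 kb could not alter it. Requiring 50% reciprocal overlap left 1 of 11 gene-end regions called (9.09%) and 60.7% of H1C regions overlapping control. With entries under a −log10 q of 5 dropped from each list the latter was 100%. Windows of 10 kb lowered the share called among control regions at no end of the 9 genes to 14.3%, and leaving out neighbouring gene ends, a choice made after seeing the data, lowered it to 16.0%. With the control list shortened to the length of the H1C list, which keeps the strongest control regions, 57.1% of all and 58.6% of those at no end of the 9 genes were called. The median log2 ratio was -0.34 scaled by local background and -0.54 unscaled. Scaled by local background, the weaker Itgal gene-end region had a ratio of 0.000920, and 6 in place of 12 shared regions had an interval below 0, a count added after seeing the data. At the gene-end regions and the Cd47 start a call in H1C needed a pileup of 16 to 30. At each of the 6 not called the depth-scaled control pileup was above the pileup needed, an outcome fixed in advance. Their −log10 p in control was 5.83 to 23.4, already above the 3.91 that set the pileup needed, so nothing is concluded from it. A region not called may still hold signal under the limit of a call.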

Other observations

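Several strong regions in the windows belonged to neighbouring genes. Next to Itga6, the end of Pdk1, a kinase of pyruvate metabolism, had pileups of 63 and 54, a log2 ratio of -0.36 (-0.92 to 0.18), within counting error. Next to Itgal, the end of Dctpp1 had the highest control pileup of all the windows, 84, against 43 in H1C (-1.11, -1.67 to -0.56), and Zfp771 had 65 and 47 (-0.61, -1.18 to -0.05). Next to Itgb2, the end of Pttg1ip had 78 and 46 (-0.90, -1.46 to -0.36), and the 2 regions at Sumo3 had 65 and 45 (-0.67, -1.25 to -0.10) and 44 and 36 (-0.43, -1.11 to 0.24).

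Next to Selplg, control had regions at the shared end of Sart3 and Iscu, with pileups of 40 and 50 and local backgrounds of 9.92 and 11.4. Neither was called in H1C, while the end of Coro1c on the other side was, with 46 and 30 (-0.76, -1.47 to -0.06). Scaled by the local background, of the neighbouring ends named here only those of Dctpp1 (-1.33 to -0.22) and Pttg1ip (-1.12 to -0.02) had an interval below 0.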
